A study of Mus musculus with 24 samples.

Results

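The 8 genes described here encode the MHC class II presentation pathway of the mouse and were selected by symbol, as a list of names, with no threshold on a value. They are H2-Aa, H2-Ab1, H2-Eb1, Cd74, Ciita, H2-DMa, H2-DMb1 and H2-DMb2, and each has 1 row among the 35770 named genes of the expression table. Values came from 24 RNA libraries of bone marrow-derived macrophages (BMDMs), 3 from each of 8 groups. BMDMs were grown from the marrow of C57BL/6 mice in 20 ng/mL M-CSF and received control media (media) or cancer-conditioned media (CM) from LL2 cells, a Lewis lung carcinoma line of the same strain, that were WT, KEAP1 KO or NRF2 KO. CM had been on the cancer cells for 48 h and made up 75% of the medium on the macrophages. Each medium was combined with vehicle or with 100 nM CDDO-Me, a synthetic oleanane triterpenoid, for 24 h. The KO genes were edited in the cancer cells by CRISPR, so every macrophage was unedited, and media/vehicle BMDMs are the naïve state. The 3 libraries of a group are independent samples of treated cells in the study's methods, but no source used here says whether they came from separate mice or separate batches of CM, so p-values measure the spread between these samples, which may be technical.

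MHC class II molecules are pairs of an α and a β chain that carry peptides from the endosomes to the cell surface, where CD4+ T cells read them. The invariant chain, encoded by Cd74, holds newly made pairs together, fills their groove and guides them to the endosomes, and H2-DM, itself a pair, then removes the last fragment of the invariant chain so that peptide can bind. The class II transactivator, encoded by Ciita, binds no DNA itself but is recruited by factors on a shared set of promoter boxes, and it sets the level of the other genes. Resting macrophages keep this program low, and interferon gamma is its best known inducer, acting through Ciita. In C57BL/6 mice the α chain gene H2-Ea is silent, so the β chain made from H2-Eb1 has no partner of its own isotype.

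Of the 8 genes, 6 lie in the MHC region of chromosome 17. On GRCm39 they run from H2-DMa (34338515 to 34358958) through H2-DMb2 (34362197 to 34370529), H2-DMb1 (34372046 to 34379204), H2-Ab1 (34476663 to 34488393) and H2-Aa (34493404 to 34506798, minus strand) to H2-Eb1 (34504236 to 34535648). Ciita lies on chromosome 16 (10297923 to 10347694). The gene models of H2-Aa and H2-Eb1 overlap on opposite strands by 2563 bases, and 2.0% of the 31-base words of the H2-Aa transcripts are antisense to H2-Eb1. H2-DMb1 and H2-DMb2 are near copies, and 31.4% of the 31-base words of H2-DMb1 also occur in H2-DMb2, so the division of reads between them is uncertain.

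The promoter letters are shown because Ciita acts through the class II promoter boxes and all 8 genes rose with CDDO-Me in WT CM and KEAP1 KO CM. Whether the boxes have a part in that rise was not tested. Of the 8 genes, 5 were in the RefSeq promoter table (build GRCm38.p6): H2-Aa, H2-Eb1, H2-DMa, H2-DMb1 and H2-DMb2. Printed are the 130 bases before the transcript start of the 4 genes in which boxes were found, 5′ to 3′ on the gene's strand, with capitals marking the box letters. They are, in the order of the lines, chr17:34145119-34145248 on the plus strand, chr17:34153061-34153190 on the plus strand, chr17:34287824-34287953 on the minus strand and chr17:34305737-34305866 on the plus strand, all on GRCm38.p6.
H2-DMb2: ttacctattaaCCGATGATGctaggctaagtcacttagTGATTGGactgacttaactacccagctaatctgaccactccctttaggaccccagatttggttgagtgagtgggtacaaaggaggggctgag
H2-DMb1: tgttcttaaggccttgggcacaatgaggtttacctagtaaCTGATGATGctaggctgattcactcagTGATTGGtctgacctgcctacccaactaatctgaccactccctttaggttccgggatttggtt
H2-Aa: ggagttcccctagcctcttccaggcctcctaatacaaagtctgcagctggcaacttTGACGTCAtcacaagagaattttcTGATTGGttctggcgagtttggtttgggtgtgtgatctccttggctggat
H2-Eb1: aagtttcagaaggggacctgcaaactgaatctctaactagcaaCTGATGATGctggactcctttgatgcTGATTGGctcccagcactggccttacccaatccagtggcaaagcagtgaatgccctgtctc
The Y box was searched as TGATTGG, the X box as CNGATGATG and a CRE-like box as TGACGTCA. For the shares over all promoters, both strands were read in windows from 250 bases before to 50 bases after the start. In the 5 genes, only the gene's strand was read, in the 250 bases before the start. The letters of the X box were chosen after these promoters had been read. The Y box was found in 7.82% of 32851 promoter windows of the table, the X box in 0.956%, the CRE-like box in 1.79%, and a Y box together with either of the others in 0.216%. In H2-DMb2, H2-DMb1 and H2-Eb1 the X box was followed after 18, 18 and 17 bases by the Y box, and in H2-Aa the CRE-like box was followed after 16 bases by the Y box. The windows of H2-DMa, which lie at separate transcript starts, held none of these letters in that narrower search. Its other strand and the bases after its starts were not read for single boxes.

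The authors deposited TPM estimated with Kallisto, which are transcript levels scaled to transcript length and to a fixed total. The totals ran from 999365 to 999801 per library over the named genes, and the number of reads behind a value is unknown and no counting interval is given. Genes listed above 0 numbered 17817 to 18993 in 22 libraries, but 15702 in NRF2 KO/vehicle replicate 3 and 16299 in NRF2 KO/CDDO-Me replicate 3. Macrophage marker genes were high in every group, and each of the 8 (Csf1r, Adgre1, Cd68, Itgam, Mertk, Fcgr1, Cd14 and Lyz2) was above 1 TPM in every library. Fold changes below are differences of log2(scaled TPM + 1) between group means from limma with all 24 libraries in 1 fit and 13661 genes tested, and adjusted p-values are Benjamini-Hochberg values over those genes. The added 1 understates the change of low genes such as H2-DMb2.

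In naïve BMDMs the class II genes were already transcribed at levels that differed widely. Cd74, on chromosome 18 (60936899 to 60945731 on GRCm39), was the highest of the 8, at 1061, 1019 and 1137 TPM in the 3 media/vehicle libraries. H2-Aa was at 272, 287 and 283 TPM, H2-Eb1 at 222, 234 and 213 TPM and H2-Ab1 at 220, 203 and 212 TPM, so the 3 chain genes lay close together. H2-DMb1 (50.2, 50.8 and 60.2 TPM) and H2-DMa (44.9, 39.7 and 60.6 TPM) were lower, and their ranges overlapped. Ciita was at 5.40, 3.35 and 7.11 TPM and H2-DMb2 at 1.14, 1.59 and 1.62 TPM. H2-Ea, the α chain of I-E, was listed at or near 0 in every library, with 0.0385 TPM as its highest value.

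**Figure D1:**
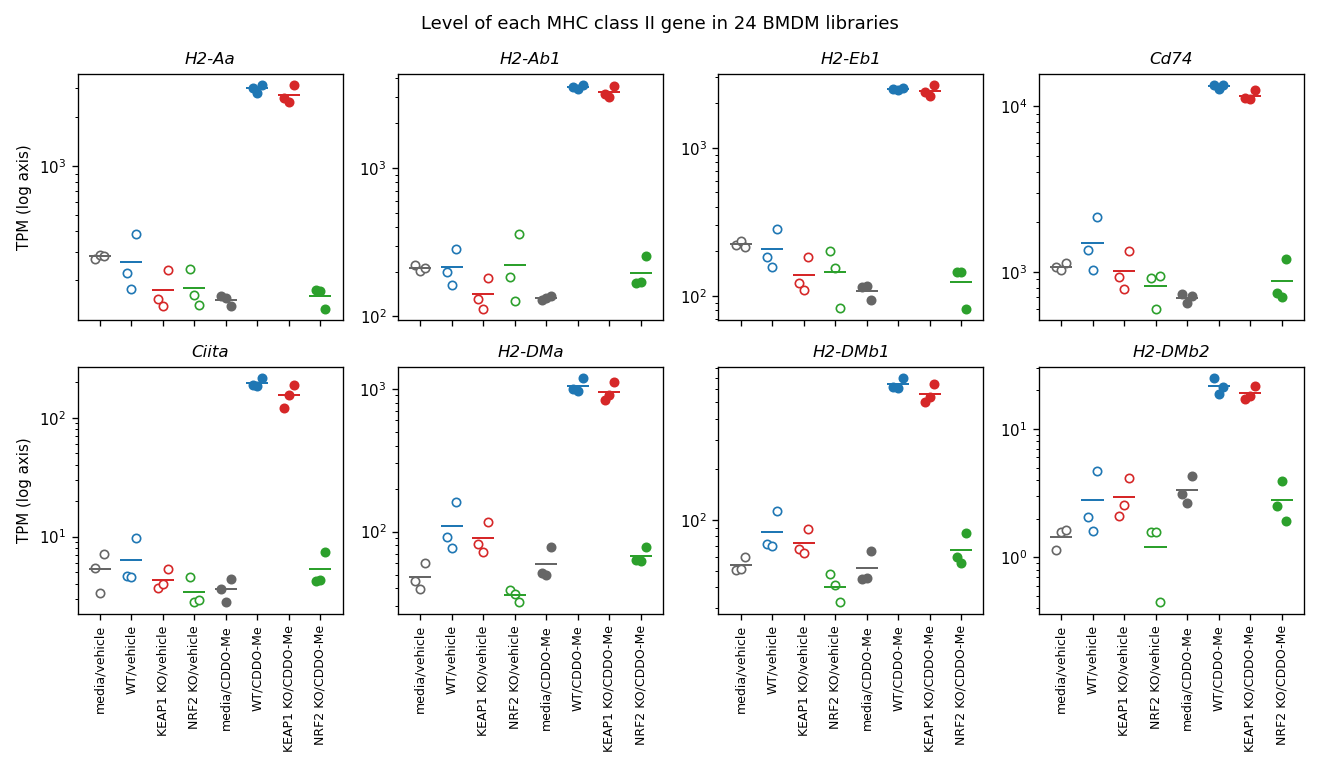
TPM (log axis, its range set for each gene) of the 8 class II genes in 24 libraries, 3 per group, with open circles for vehicle, filled circles for CDDO-Me and short bars for group means. For every gene the 6 libraries of WT/CDDO-Me and KEAP1 KO/CDDO-Me BMDMs lie above the other 18, and CDDO-Me in control media or NRF2 KO CM gives values in the range of the vehicle libraries or close to it.

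The largest difference in the data on these genes was between CDDO-Me and vehicle in the presence of WT CM or KEAP1 KO CM. Cd74 was at 1344, 1020 and 2135 TPM in WT/vehicle BMDMs and at 13419, 12593 and 13313 TPM in WT/CDDO-Me BMDMs. In KEAP1 KO CM it was at 924, 789 and 1327 TPM with vehicle and at 11221, 11018 and 12447 TPM with CDDO-Me. Within each library, Cd74 ranked 3rd to 7th among all named genes in these 6 CDDO-Me libraries, and 47th to 239th in the other 18. The 8 genes together took 2.03% to 2.47% of all TPM in the 6 libraries and 0.112% to 0.337% in the 18.

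Ciita had the largest change of the 8. It was at 4.67, 4.54 and 9.74 TPM in WT/vehicle BMDMs and at 190, 185 and 214 TPM in WT/CDDO-Me BMDMs, a ratio of mean TPM of 31.1. In KEAP1 KO CM it was at 3.70, 3.98 and 5.32 TPM with vehicle and at 121, 156 and 188 TPM with CDDO-Me, a ratio of 35.8. The log2 fold changes were 4.95 (SE 0.29, adjusted p = 8.25e-11) in WT CM and 5.02 (SE 0.29, adjusted p = 6.94e-11) in KEAP1 KO CM. They were 40th and 39th among the rises of the 13661 genes tested.

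The 3 chain genes rose by similar amounts. H2-Ab1, the β chain of I-A, was at 198, 164 and 283 TPM in WT/vehicle BMDMs and at 3501, 3409 and 3616 TPM in WT/CDDO-Me BMDMs. H2-Aa, its α chain, went from 221, 176 and 384 TPM to 3021, 2818 and 3139 TPM. H2-Eb1, the β chain of I-E, went from 183, 158 and 282 TPM to 2507, 2439 and 2553 TPM. No vehicle library reached a CDDO-Me library for any of these genes, and 19.3% of all genes tested were separated in this way in WT CM and 16.7% in KEAP1 KO CM. With KEAP1 KO CM the CDDO-Me levels were 3158, 2972 and 3537 TPM for H2-Ab1, 2609, 2467 and 3145 TPM for H2-Aa and 2364, 2252 and 2662 TPM for H2-Eb1, against vehicle levels from 110 to 233 TPM. Ratios of mean TPM were 16.3, 11.5 and 12.0 for H2-Ab1, H2-Aa and H2-Eb1 in WT CM and 22.8, 15.6 and 17.6 in KEAP1 KO CM.

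The genes of the peptide editor H2-DM rose too. H2-DMa, its α chain, was at 91.0, 76.6 and 162 TPM in WT/vehicle BMDMs and at 990, 972 and 1182 TPM in WT/CDDO-Me BMDMs. H2-DMb1, the more abundant β chain gene, was at 71.8, 69.7 and 113 TPM and then at 618, 608 and 694 TPM. H2-DMb2 remained the lowest of the 8 genes, at 2.06, 1.61 and 4.71 TPM with vehicle and 24.8, 18.8 and 21.4 TPM with CDDO-Me. In KEAP1 KO CM the CDDO-Me libraries held 829, 899 and 1111 TPM of H2-DMa, 505, 539 and 645 TPM of H2-DMb1 and 17.2, 18.2 and 21.5 TPM of H2-DMb2. Again no vehicle library reached a CDDO-Me library.

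In both CM, 8 of 8 genes passed the threshold as higher with CDDO-Me. Of all genes tested, 27.9% were called in either direction and 14.5% higher in WT CM, and 28.8% and 14.5% in KEAP1 KO CM. The median log2 fold change of the 8 genes was 3.59 in WT CM and 3.94 in KEAP1 KO CM, where the median of all genes tested was -0.01 and -0.02. After Ciita, the log2 fold changes in WT CM were 4.19 (SE 0.31) for H2-Ab1, 3.76 (SE 0.26) for H2-Eb1, 3.73 (SE 0.24) for H2-Aa, 3.44 (SE 0.27) for H2-DMa, 3.33 (SE 0.28) for Cd74, 3.07 (SE 0.23) for H2-DMb1 and 2.78 (SE 0.29) for H2-DMb2. In KEAP1 KO CM they were 4.70 for H2-Ab1, 4.33 for H2-Eb1, 4.16 for H2-Aa, 3.71 for Cd74, 3.57 for H2-DMa, 3.10 for H2-DMb1 and 2.52 for H2-DMb2, with the same standard errors. The largest adjusted p-value among these was 9.52e-07, for H2-DMb2 in KEAP1 KO CM. Fewer cells of a kind and less RNA per cell cannot be told apart in these bulk samples, nor can more of either.

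**Figure D2:**
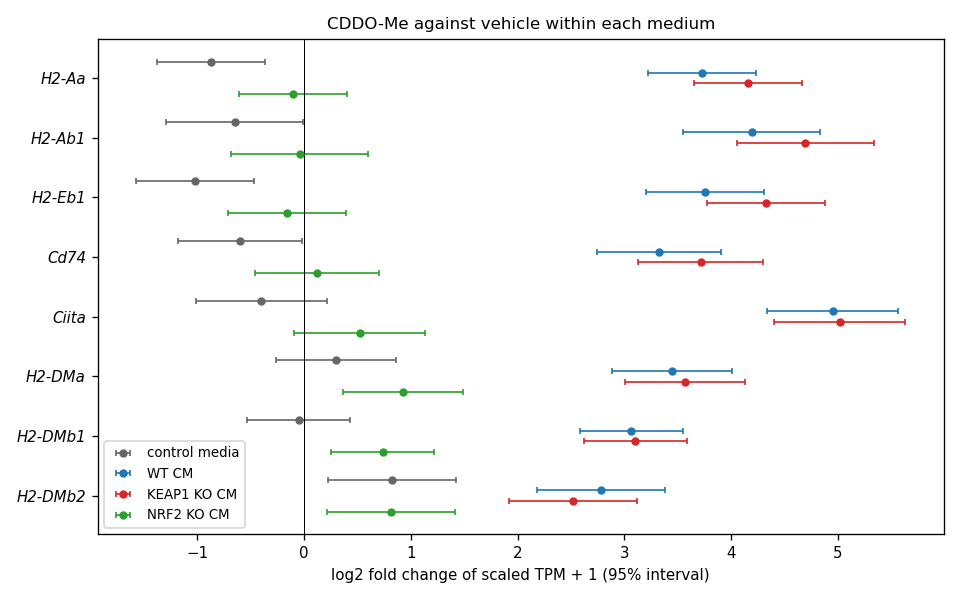
Log2 fold change of scaled TPM + 1 between CDDO-Me and vehicle for the 8 genes in each medium, as points with 95% intervals from limma on 3 libraries per group. In WT CM and KEAP1 KO CM the points lie between 2.52 and 5.02, and in control media and NRF2 KO CM between -1.02 and 0.93.

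The same dose in control media gave no call for a rise, and 2 of the chain genes fell. H2-Eb1 fell from 222, 234 and 213 TPM to 116, 117 and 93.5 TPM (log2 fold change -1.02, SE 0.26, adjusted p = 0.0233). H2-Aa fell from 272, 287 and 283 TPM to 160, 156 and 139 TPM (log2 fold change -0.87, SE 0.24, adjusted p = 0.0365). These were the 2 of 8 genes called, both lower, where 6.02% of all genes were called and 2.79% as lower. The call for each was lost whenever any 1 of the 6 libraries compared was left out, with adjusted p-values from 0.0576 to 0.0911 for H2-Eb1 and from 0.0865 to 0.107 for H2-Aa. H2-Ab1 (129, 132 and 137 TPM) and Cd74 (732, 647 and 718 TPM) with CDDO-Me also lay below all 3 media/vehicle libraries, as did 18.2% of all genes, with log2 fold changes of -0.65 and -0.60 and adjusted p-values of 0.305 and 0.292. With a term for the replicate number, Cd74 was called too (adjusted p = 0.0348). H2-DMb2 lay above all 3 instead, at 2.63 to 4.32 TPM (log2 fold change 0.82, adjusted p = 0.113), as did 13.3% of all genes.

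In NRF2 KO CM 2 genes of H2-DM were called with CDDO-Me. H2-DMa was at 39.1, 36.3 and 31.8 TPM with vehicle and at 63.2, 61.7 and 77.4 TPM with CDDO-Me (log2 fold change 0.93, SE 0.27, adjusted p = 0.0328). H2-DMb1 was at 47.5, 40.8 and 32.3 TPM and at 60.0, 55.7 and 84.0 TPM (log2 fold change 0.74, SE 0.23, adjusted p = 0.0485). These 2 of 8 genes compare with 9.61% of all genes called and 4.87% called higher. H2-DMb2 was at 1.59, 1.57 and 0.445 TPM with vehicle and at 2.52, 3.93 and 1.94 TPM with CDDO-Me, the largest ratio of mean TPM of the 8 genes here (2.32), and was not called (log2 fold change 0.82, adjusted p = 0.0855). The groups did not overlap for any of these 3 genes, nor for 7.6% of all genes as higher. With a term for the replicate number, H2-DMa (adjusted p = 0.000319) and H2-DMb1 (0.00325) were called and H2-DMb2 (0.0646) was not. The calls of H2-DMa and H2-DMb1 were lost without both NRF2 KO replicate 3 libraries (adjusted p = 0.2 and 0.399). Leaving out NRF2 KO/vehicle replicate 2 or 3 or NRF2 KO/CDDO-Me replicate 1 or 3 ended the call of H2-DMa, with adjusted p from 0.0615 to 0.119, and leaving out any of 17 of the 24 libraries ended that of H2-DMb1, with adjusted p from 0.0529 to 0.19. Ciita was at 4.55, 2.79 and 2.93 TPM with vehicle and 4.24, 4.29 and 7.41 TPM with CDDO-Me, and Cd74 at 923, 598 and 947 TPM and 745, 709 and 1192 TPM. Those ranges overlapped, and the log2 fold changes of the 4 most abundant genes, Cd74, H2-Aa, H2-Ab1 and H2-Eb1, lay between -0.16 and 0.12.

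Whether the effect of CDDO-Me depended on the medium was tested by the difference between fold changes. The comparisons that follow share libraries, so they are not independent of each other or of those above. Against control media, the effect was larger in WT CM for 8 of 8 genes, by log2 differences from 1.96 (SE 0.41, H2-DMb2, adjusted p = 0.00181) to 5.35 (SE 0.41, Ciita, adjusted p = 1.15e-08), where 15.3% of all genes were called and 8.59% as larger. In KEAP1 KO CM it was larger for 8 of 8 genes as well, from 1.70 (SE 0.41, H2-DMb2, adjusted p = 0.00602) to 5.42 (SE 0.41, Ciita, adjusted p = 1e-08), where 14.8% and 8.19% of all genes were called. The call of H2-DMb2 in KEAP1 KO CM was lost with a pseudocount of 0.1 (adjusted p = 0.0543).

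Between KEAP1 KO CM and WT CM, limma called 0 of 8 genes and 0% of all genes for a difference in the effect of CDDO-Me. At an unadjusted p under 0.05 there were 0 of the 8 genes and 224 of all genes. Differences, KEAP1 KO CM minus WT CM, were 0.57 for H2-Eb1 (95% interval -0.21 to 1.35), 0.50 for H2-Ab1 (-0.41 to 1.41), 0.43 for H2-Aa (-0.28 to 1.15) and 0.39 for Cd74 (-0.44 to 1.21). For Ciita the difference was 0.07 (-0.80 to 0.93), for H2-DMa 0.12 (-0.67 to 0.92), for H2-DMb1 0.04 (-0.64 to 0.72) and for H2-DMb2 -0.27 (-1.11 to 0.58). The intervals leave room for a difference of more than 1 log2 unit in 5 of the 8 genes.

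Between NRF2 KO CM and control media, 0 of 8 genes and 0% of all genes were called for a difference in effect. At an unadjusted p under 0.05 there were 4 of the 8 genes (H2-Aa, H2-Eb1, Ciita and H2-DMb1) and 358 of all genes, and each of those 4 differences was positive, from 0.76 to 0.92.

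With vehicle, the question was whether CM itself altered the class II genes. WT/vehicle BMDMs differed from media/vehicle BMDMs in 1 of 8 genes, where 7.23% of all genes were called and 4.38% as higher. This was H2-DMa, at 91.0, 76.6 and 162 TPM against 44.9, 39.7 and 60.6 TPM (log2 fold change 1.18, SE 0.27, adjusted p = 0.00831). The call was lost without WT/vehicle replicate 3 (adjusted p = 0.0618) or media/vehicle replicate 2 (adjusted p = 0.0544). H2-DMb1 was also higher in all 3 WT/vehicle libraries, as were 13.6% of all genes (log2 fold change 0.69, adjusted p = 0.0835), and it was called with a term for the replicate number (adjusted p = 0.00649). For the chain genes the fold changes lay between -0.12 and 0.05, and for Ciita and Cd74 they were 0.25 and 0.49, with adjusted p-values from 0.407 to 0.977. WT/vehicle replicate 3 held the highest value of its group for each of the 8 genes.

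KEAP1 KO/vehicle BMDMs compared with media/vehicle BMDMs had 0 of 8 genes called by limma, where 8.06% of all genes were called. At an unadjusted p under 0.05 there were 4 of the 8 genes and 2594 of all genes. With a term for the replicate number, 2 of the 8 genes and 1784 of all genes were called. H2-Aa (153, 140 and 233 TPM), H2-Eb1 (122, 110 and 182 TPM) and H2-Ab1 (130, 113 and 182 TPM) each lay below all 3 media/vehicle libraries, with log2 fold changes of -0.71, -0.72 and -0.60 and adjusted p-values of 0.0824, 0.109 and 0.301. H2-DMa (81.3, 72.1 and 117 TPM), H2-DMb1 (67.7, 63.7 and 88.1 TPM) and H2-DMb2 (2.09, 2.58 and 4.17 TPM) each lay above them, with log2 fold changes of 0.88, 0.43 and 0.65 and adjusted p-values of 0.0506, 0.34 and 0.213. Among all genes, 19.8% did not overlap between these groups as higher and 16% as lower. Without the 2 libraries in which few genes were detected, 4 of the 8 genes and 2852 of all 13562 genes tested were called: H2-Aa (adjusted p = 0.0452), H2-Ab1 (0.0396) and H2-Eb1 (0.0162) as lower and H2-DMa (0.0271) as higher.

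**Figure D3:**
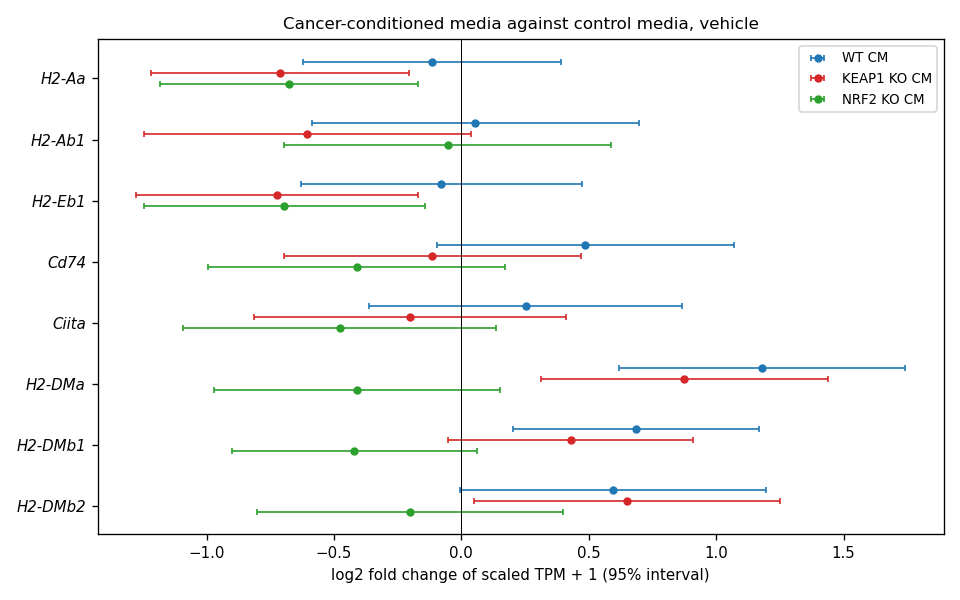
Log2 fold change of scaled TPM + 1 between each CM and control media, vehicle only, for the 8 genes, as points with 95% intervals from limma on 3 libraries per group. The H2-DM genes lie above 0 in WT CM and KEAP1 KO CM (0.43 to 1.18), the chain genes lie at -0.60 to -0.72 in KEAP1 KO CM, and all 8 points of NRF2 KO CM lie below 0.

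Set side by side, the KEAP1 KO/vehicle libraries were lower than the WT/vehicle libraries in most class II genes, without passing the test. Limma called 0 of 8 genes and 0% of all genes, and at an unadjusted p under 0.05 there were 4 of the 8 genes (H2-Aa, H2-Ab1, H2-Eb1 and Cd74) and 350 of all genes. Log2 fold changes, KEAP1 KO minus WT, were -0.66 for H2-Ab1 (95% interval -1.30 to -0.02), -0.65 for H2-Eb1 (-1.20 to -0.09), -0.60 for Cd74 (-1.18 to -0.02) and -0.60 for H2-Aa (-1.10 to -0.09), each with an adjusted p of 1. Ciita was at -0.45, H2-DMa at -0.31, H2-DMb1 at -0.26 and H2-DMb2 at 0.06. The ranges of the 2 groups overlapped for each of the 8 genes, where 2.65% of all genes were separated as lower and 10.9% as higher. Within libraries of the same replicate number, 7 of the 8 genes were lower with KEAP1 KO CM in all 3 pairs, where 19.7% of all genes tested were, and the exception was H2-DMb2. For H2-Ab1 those pairs differed by -0.65, -0.62 and -0.71 on the log2 scale. With a term for the replicate number, 0 of 8 genes were called, with adjusted p-values from 0.458 to 1. With array weights, which give noisy libraries less influence, 4 of the 8 genes were called as lower, H2-Aa, H2-Ab1, H2-Eb1 and Cd74, with adjusted p-values from 0.00481 to 0.0221, and 974 of all 13661 genes were called, 575 of them as higher.

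Compared with NRF2 KO/vehicle BMDMs, WT/vehicle BMDMs were higher in 3 of 8 genes, where 10.6% of all genes were called and 6.84% as higher. H2-DMa was at 39.1, 36.3 and 31.8 TPM in NRF2 KO/vehicle BMDMs, below all WT/vehicle libraries (log2 fold change 1.59, SE 0.27, adjusted p = 0.000583). H2-DMb1 differed by 1.11 (SE 0.23, adjusted p = 0.00372) and Cd74 by 0.90 (SE 0.28, adjusted p = 0.0449). The call of Cd74 was lost when any of 16 of the 24 libraries was left out, with adjusted p-values from 0.0501 to 0.234, the highest without WT/vehicle replicate 3. A fit of these 6 libraries alone called 0 of the 8 genes, with adjusted p-values of 0.0783 for H2-DMa, 0.117 for H2-DMb1 and 0.36 for Cd74, and it called 168 of all 12420 genes tested. Against control media, NRF2 KO/vehicle BMDMs had 0 of 8 genes called, where 0.00732% of all genes were called. At an unadjusted p under 0.05 there were H2-Aa and H2-Eb1 among the 8 genes and 1649 of all genes. These 2 genes had log2 fold changes of -0.68 and -0.69, close to those in KEAP1 KO CM (-0.71 and -0.72). The log2 fold changes of the 8 genes lay between -0.69 and -0.05, with H2-Ab1 at -0.05. These values depended on NRF2 KO/vehicle replicate 3. Without that library the change was -0.57 for H2-Aa, -0.39 for H2-Eb1 and -0.51 for H2-Ab1.

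The 8 genes did not keep fixed proportions. As a share of H2-Aa, H2-DMa stood at 13.8% to 21.4% in media/vehicle libraries, 16.6% to 22.7% in NRF2 KO/vehicle, 41.1% to 43.5% in WT/vehicle and 50.2% to 53.3% in KEAP1 KO/vehicle. With CDDO-Me the share was 32.8% to 37.6% in WT CM and 31.8% to 36.4% in KEAP1 KO CM, below the vehicle libraries of the same medium. It was 31.9% to 55.6% in media/CDDO-Me and 35.9% to 57.8% in NRF2 KO/CDDO-Me libraries, above the vehicle libraries of the same medium. The ratio of H2-Aa to H2-Ab1 was 0.83 to 0.89 in the 6 libraries of WT/CDDO-Me and KEAP1 KO/CDDO-Me and 1.01 to 1.41 in all vehicle and media/CDDO-Me libraries other than NRF2 KO/vehicle replicate 3. It was 0.393 in that library and 1.04, 1.01 and 0.529 in the NRF2 KO/CDDO-Me libraries. H2-DMb2 contributed 1.36% to 6.58% of the summed TPM of H2-DMb1 and H2-DMb2. These ratios were chosen after their values were seen. Over 40 comparisons of 5 such ratios, the exact two-sided permutation p of each one that separated the groups was 0.1, the smallest that 3 against 3 libraries allow, and the smallest adjusted p was 0.167.

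A pair of libraries departed from the others in the relation of the chain genes. H2-Ab1 to H2-Eb1 was 0.83 to 1.47 in 22 libraries, but 4.28 in NRF2 KO/vehicle replicate 3 and 3.09 in NRF2 KO/CDDO-Me replicate 3. In the first, H2-Ab1 was at 358 TPM and H2-Eb1 at 83.6 TPM. In the second they were at 253 and 82.0 TPM. These are the libraries with the fewest genes listed above 0, and what part of the departure this accounts for was not tested.

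Other genes of the pathway were taken from lists of symbols. Their counts stand beside shares over all genes of 14.5% higher and 13.4% lower with CDDO-Me in WT CM and 14.5% and 14.3% in KEAP1 KO CM. Among the other class II genes, H2-Oa and H2-Ob, the chains of H2-DO, an inhibitor of H2-DM, rose with CDDO-Me in WT CM, from 0.11 to 0.756 TPM up to 3.42 to 5.15 TPM for H2-Oa and from 0.115 to 0.351 TPM up to 6.36 to 8.50 TPM for H2-Ob. Both rose in KEAP1 KO CM too, with log2 fold changes of 1.90 and 2.30. With vehicle in these CM neither gene reached 1 TPM, and both passed the filter through their CDDO-Me libraries. Only a rise could therefore have been called, and these calls are no test of direction. H2-Ea and H2-Eb2 were too low to be tested.

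Of 10 genes that act upstream of Ciita, 6 rose and 0 fell with CDDO-Me in WT CM, and the same counts held in KEAP1 KO CM. Irf1, which acts on the interferon-responsive promoter of Ciita, was at 56.8 to 112 TPM in WT/vehicle and 890 to 986 TPM in WT/CDDO-Me libraries, with log2 fold changes of 3.69 in WT CM and 3.86 in KEAP1 KO CM. Irf8 changed by 2.36 and 2.22, and Socs1, a feedback inhibitor of interferon signalling, by 2.37 and 2.51. Prdm1, which encodes BLIMP1, a repressor of Ciita, rose as well, by 1.34 and 1.51. Its means with CDDO-Me were alike in all media, at 13.0 TPM in WT CM, 12.8 in KEAP1 KO CM, 13.0 in control media and 12.9 in NRF2 KO CM. With vehicle they were 5.21, 4.63, 9.84 and 7.22 TPM in the same order. The receptor genes Ifngr1 and Ifngr2 were not called. In control media and in NRF2 KO CM, 0 of the 10 genes were called in either direction by limma, where 6.02% and 9.61% of all genes were, with 0 and 3 of them at an unadjusted p under 0.05. Some also differed between media with vehicle. Against control media, 2 of the 10 were called higher and 0 lower in WT CM, where 7.23% of all genes were called. In KEAP1 KO CM 2 were higher and 2 lower, where 8.06% were called. Mean Socs1 was 0.942 TPM in media/vehicle, 23.7 TPM in WT/vehicle and 21.9 TPM in KEAP1 KO/vehicle BMDMs.

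Of the 7 genes for factors that sit on the class II promoter boxes, 1 rose and 1 fell in WT CM, which is close to the shares over all genes, and 2 rose and 1 fell in KEAP1 KO CM. Nfyb rose by 0.55 and 0.57 on the log2 scale and Nfya fell by 0.47 and 0.40, both being subunits of the Y box factor NF-Y. Rfx5, a subunit of the X box factor, rose in KEAP1 KO CM (log2 fold change 0.80, adjusted p = 0.00807) and had a log2 fold change of 0.59 in WT CM (adjusted p = 0.0526).

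Of 8 genes for the processing of antigen and of the invariant chain, 1 rose and 4 fell with CDDO-Me in WT CM, where 13.4% of all genes fell, and 2 rose and 4 fell in KEAP1 KO CM, where 14.3% fell. Ctsl was at 2168 to 2967 TPM in WT/vehicle and 367 to 374 TPM in WT/CDDO-Me libraries (log2 fold change -2.64, adjusted p = 2.62e-06). Ctsd fell by 1.79 on the log2 scale, Ctsb by 1.27 and Lgmn, the asparagine endopeptidase, by 1.14. Ctss, whose product makes the late cuts in the invariant chain in antigen presenting cells, was at 5217 to 6410 TPM with vehicle and 5804 to 6892 TPM with CDDO-Me in WT CM, with no call, and rose by 0.56 in KEAP1 KO CM (adjusted p = 0.0145). Sppl2a, the protease of the membrane stub of CD74, rose by 1.43 and 1.62. Changes were also seen in the other media. In control media 1 of the 8 rose and 0 fell, where 6.02% of all genes were called. In NRF2 KO CM 1 rose and 1 fell, where 9.61% were called. At an unadjusted p under 0.05 there were 5 and 4 of the 8. In control media Sppl2a went from 81.6 to 91.2 TPM up to 114 to 118 TPM, and Ctsb from 13002 to 13524 TPM down to 7534 to 8081 TPM.

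Genes that govern how long class II stays at the surface went both ways. Marchf1, a ubiquitin ligase that takes class II off the surface, rose by 1.63 in WT CM and 1.92 in KEAP1 KO CM. Cd83, which opposes it, fell by 1.37 in WT CM and was at -0.76 without a call in KEAP1 KO CM. Cd83 also fell in control media, by 1.86, and in NRF2 KO CM, by 2.00, where 4.74% of all genes fell. Of the 5 genes, 2 rose and 2 fell in WT CM, and 2 rose and 0 fell in KEAP1 KO CM. Of 3 genes for co-stimulation, 2 rose in either CM: Cd86 by 2.58 and 2.28 and Cd40 by 1.06 and 1.79.

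Class I genes rose beside the class II genes, by smaller amounts at the median, though the ranges overlapped in WT CM and in KEAP1 KO CM. All 7 (H2-K1, H2-D1, B2m, Tap1, Tap2, Tapbp and Nlrc5) were called as higher with CDDO-Me in WT CM and in KEAP1 KO CM, with median log2 fold changes of 2.18 and 2.36 against 3.59 and 3.94 for the 8 class II genes. The difference between the lists was not tested. Nlrc5, the class I counterpart of Ciita, was at 9.64 to 11.4 TPM in WT/vehicle and 80.8 to 100.4 TPM in WT/CDDO-Me libraries (log2 fold change 3.18). It rose by 0.76 in NRF2 KO CM (adjusted p = 0.0123).

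**Figure D4:**
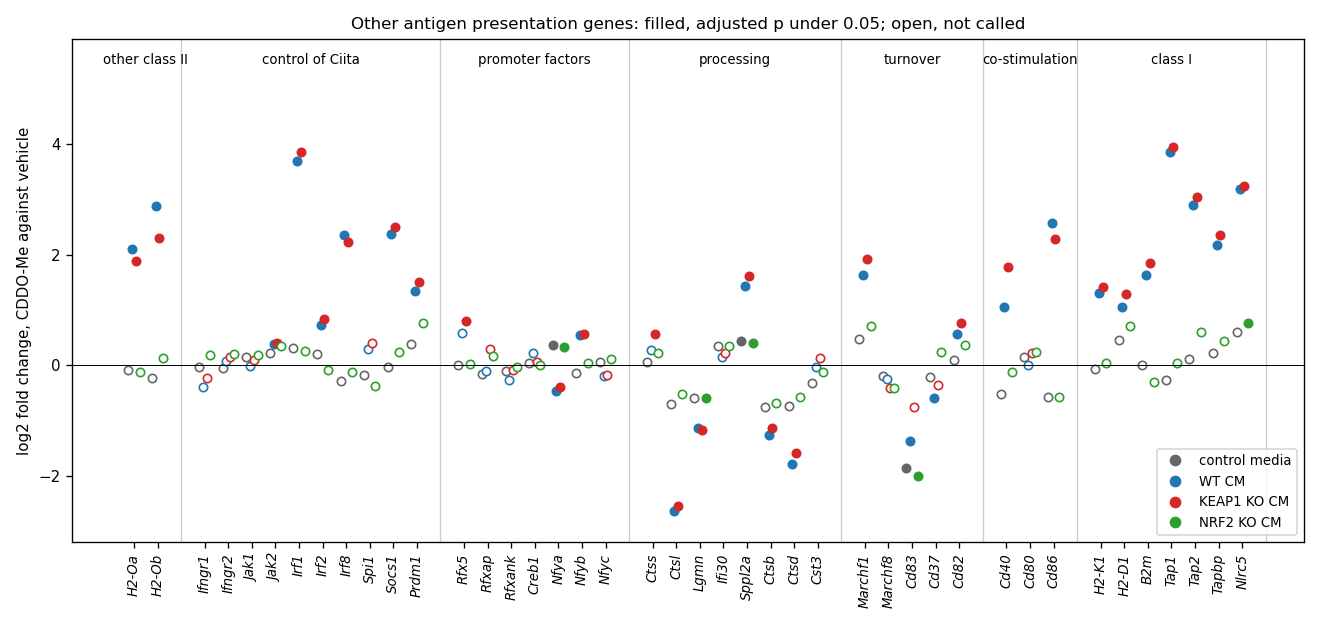
Log2 fold change between CDDO-Me and vehicle (vertical axis) of the tested genes of 7 lists around class II presentation, in 4 media, with filled circles at an adjusted p under 0.05 and open circles otherwise. In WT CM and KEAP1 KO CM, the points of Irf1 lie at 3.69 and 3.86, the class I genes at 1.06 to 3.95 and the cathepsin genes Ctsl, Ctsb and Ctsd at -1.13 to -2.64.

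Over the 24 libraries, the genes outside the list that were most like the mean of the standardised class II genes were Batf2 (Pearson r = 0.996), Tapbpl (0.991), Idnk (0.991), Psme2 (0.990), Gvin3, Fgl2, Gbp11 and Irf1 (0.989), among 10054 genes with a mean of at least 5 TPM. The libraries fall into 6 high and 18 low ones, so these correlations mainly describe that split. Gvin3 and Gbp11 had means of at most 0.704 and 0.331 TPM in any low group. They reached a mean of 5 TPM only through the 6 high libraries, so their place in this list was fixed largely by the filter. After removal of the group means, the nearest genes were Mpeg1 (0.916), Trafd1 (0.910), Tifab, Rab19, Eepd1, Prdm1, Unc93b1 and Slc17a5 (0.891). Batf2 went from a mean of 8.95 TPM in WT/vehicle to 288 TPM in WT/CDDO-Me BMDMs. After the same removal, H2-DMa was closest to the mean of the other 7 class II genes (r = 0.912), and H2-Ab1 and H2-Eb1 were the farthest (0.477 and 0.482), where both replicate 3 libraries of NRF2 KO CM are among the points.

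Markers of other cell types were read beside these results. Ifng was at 0 in 23 of the 24 libraries and at 0.0637 TPM in the other, and the summed TPM of 7 T or NK cell markers was 0.392 to 1.70 over all libraries, with no more in WT/CDDO-Me (0.637 to 0.923) or KEAP1 KO/CDDO-Me (0.529 to 0.557) than in media/vehicle (0.858 to 1.30). Of 6 B cell markers, Ms4a1 and Pax5 were at or near 0, with 0.145 TPM as the highest value in any library. Ighm and Cd22 made up most of their sum, which was 75.0 to 94.4 TPM in WT/CDDO-Me and 75.1 to 89.1 TPM in WT/vehicle libraries. Dendritic cell markers went both ways. Flt3 was at no more than 0.239 TPM in any library and Zbtb46 at 0.453 to 0.582 TPM in WT/CDDO-Me against 0.569 to 0.968 TPM in WT/vehicle libraries. Itgax fell by 1.87 on the log2 scale in WT CM and Cd209a fell by 2.18. Clec9a, however, went from at most 0.497 TPM to between 95.4 and 123 TPM in WT CM and from at most 0.0679 TPM to between 43.8 and 83.4 TPM in KEAP1 KO CM, and Xcr1 over both CM from at most 0.0943 TPM to between 1.91 and 4.69 TPM. Of the 8 dendritic cell markers 5 were tested, and 2 were called higher and 2 lower in either CM. The 2 called higher, Clec9a and Xcr1, were under 1 TPM with vehicle in both CM. Only a rise could have been called for them, so these counts are no test of direction. The summed dendritic cell markers were 328 to 415 TPM in WT/vehicle and 194 to 206 TPM in WT/CDDO-Me libraries. The part of any such cells in the class II levels was not tested.

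The sum of 8 fibroblast markers was 528 to 1105 TPM in WT/vehicle and 206 to 580 TPM in WT/CDDO-Me libraries, and 753 to 1449 TPM and 167 to 782 TPM in KEAP1 KO CM, with 1 of 8 genes (Pdgfra) called lower in either CM. The neutrophil marker sum was 10.3 to 31.8 TPM and 32.9 to 56.5 TPM with vehicle and CDDO-Me in WT CM and 14.6 to 23.1 TPM and 64.6 to 71.3 TPM in KEAP1 KO CM, with S100a8 as the largest part of the sums with CDDO-Me. Of 8 macrophage markers, 2 were called higher, 1 lower and 5 not at all with CDDO-Me in WT CM, and the same counts held in KEAP1 KO CM. Of all genes, 14.5% were called higher in either CM, and 13.4% and 14.3% lower. Among these markers, Fcgr1 rose by 3.35 in WT CM and 3.50 in KEAP1 KO CM and Cd68 fell by 1.41 and 1.31. Their part in the class II results was not tested.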

How the data were processed

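Poly-A RNA of 24 BMDM libraries was sequenced by Novogene. Per the study's methods, the authors mapped reads to GRCm39 with Kallisto, removed genes of low count, applied TMM and tested with limma. The authors deposited TPM for 35770 named genes, without read counts, in a file named as length-scaled counts. One row without a gene name (0.0199% to 0.0635% of the total) was left out. Because the unit is TPM, no count model was used.

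TPM were scaled by unweighted trimmed means of M values (30% trimmed from the M values, 5% from the A values). Log2 of scaled TPM plus 1 was then tested with limma 3.58.1 in R 4.3.3 (trend on the mean, 8 groups in 1 fit, 16 residual degrees of freedom) for the 13661 genes that exceeded 1 TPM in 3 or more libraries. P-values are two-sided, adjusted by Benjamini-Hochberg over all genes tested and compared with 0.05. The fit was also run on simulated data with independent noise in every library. That run cannot show how the fit behaves where same-numbered libraries deviate together, as described below. Groups came from the sample labels. The genes and lists were chosen with earlier results of these data known. All 8 genes passed the filter. Some members of the other lists are not reported here and were left out of their counts and sums. The rule for named genes was the 8 genes, counts of each list with up to 4 members of smallest adjusted p or of a role in question, and the 8 most alike genes; cell type markers were named beside them. Same-numbered libraries deviated together in much of the series. Over all groups, 71 of 84 same-numbered pairs of deviations correlated above 0.1 (lowest 0.0231, mean 0.256), against a mean of -0.121 between different numbers. The main fit had no term for the replicate number. Every pair was above 0.1 for WT/vehicle against media/vehicle, KEAP1 KO/vehicle against WT/vehicle, and CDDO-Me against vehicle in control media and in NRF2 KO CM (pairs from 0.145 to 0.719). Values with the replicate term are given beside those results and beside KEAP1 KO/vehicle against media/vehicle. Gene coordinates are from GENCODE on GRCm39, and promoters from RefSeq on GRCm38.p6. Shared 31-base words were counted on GENCODE transcripts. Whether libraries keep strand is not given in the sources used here. Alternatives were another scaling (RLE) or none, no filter or a filter at 5 TPM, a pseudocount of 0.1, no trend, array weights, a replicate block, the compared groups alone, both NRF2 KO replicate 3 libraries left out, and each library left out. Python 3.11.15 and matplotlib 3.10.9 were used.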

Additional observations from a re-analysis of the deposited data

Results flagged for a closer look

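The effect of CDDO-Me differed between media for all 8 class II genes by the interaction test of limma, and these differences are listed for that reason alone. WT CM exceeded control media by log2 differences of 4.59 for H2-Aa, 4.84 for H2-Ab1, 4.78 for H2-Eb1, 3.92 for Cd74, 5.35 for Ciita, 3.14 for H2-DMa, 3.11 for H2-DMb1 and 1.96 for H2-DMb2 (adjusted p from 6.88e-09 to 0.00181). KEAP1 KO CM exceeded control media by 5.03 for H2-Aa, 5.34 for H2-Ab1, 5.35 for H2-Eb1, 4.31 for Cd74, 5.42 for Ciita, 3.27 for H2-DMa, 3.15 for H2-DMb1 and 1.70 for H2-DMb2 (adjusted p from 1.96e-09 to 0.00602). Both sets of differences share the control media libraries. No group held more than 3 libraries, so no test for a library that stands apart was made.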

How the results depend on the processing

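The depth is unknown, and 3 libraries per group limit the precision. The 8 calls with CDDO-Me in WT CM, in KEAP1 KO CM, and for the difference of WT CM from control media held under all 10 other settings and without any 1 library. The 8 calls for the difference of KEAP1 KO CM from control media held too, except H2-DMb2 with a pseudocount of 0.1, which left 7.

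The other counts moved, and the cause was not tested. For KEAP1 KO/vehicle against media/vehicle the 0 genes called became 1 without scaling, 1 with the filter at 5 TPM, 5 with array weights, 2 with the replicate block, 3 with the compared groups alone and 4 without both NRF2 KO replicate 3 libraries. For CDDO-Me in control media the 2 genes became 1 without a filter, 5 with array weights, 3 with the replicate block, 5 with the compared groups alone and 4 without both NRF2 KO replicate 3 libraries. For CDDO-Me in NRF2 KO CM the 2 genes became 0 without a filter, 1 without a trend, 1 with array weights, 0 with the compared groups alone and 0 without both NRF2 KO replicate 3 libraries. For WT/vehicle against media/vehicle the 1 gene became 2 with array weights, 2 with the replicate block and 2 without both NRF2 KO replicate 3 libraries. For KEAP1 KO/vehicle against WT/vehicle the 0 genes became 4 with array weights, and for WT/vehicle against NRF2 KO/vehicle the 3 became 0 with the compared groups alone. Calls over all genes moved as well. For KEAP1 KO/vehicle against media/vehicle, 1101 of 13661 genes became 1131 without scaling, 1027 of 10863 with the filter at 5 TPM, 5012 with array weights, 1784 with the replicate block, 2237 of 12502 with the compared groups alone and 2852 of 13562 without both NRF2 KO replicate 3 libraries. For CDDO-Me in control media, 822 became 801 of 24791 without a filter, 3521 with array weights, 1464 with the block, 1629 of 12540 with the compared groups alone and 2025 of 13562 without both NRF2 KO replicate 3 libraries. For CDDO-Me in NRF2 KO CM, 1313 became 1232 of 24791 without a filter, 1296 without a trend, 2782 with array weights, 139 of 12603 with the compared groups alone and 1295 of 13562 without both NRF2 KO replicate 3 libraries. For WT/vehicle against media/vehicle, 988 became 4114 with array weights, 1743 with the block and 2554 of 13562 without both NRF2 KO replicate 3 libraries. With each library left out in turn, the counts of the 8 genes ran from 0 to 2 (WT/vehicle against media/vehicle), 0 to 2 (KEAP1 KO/vehicle against media/vehicle), 2 to 5 (WT/vehicle against NRF2 KO/vehicle), 0 to 2 (CDDO-Me in control media) and 0 to 3 (CDDO-Me in NRF2 KO CM), and remained 0 for NRF2 KO/vehicle against media/vehicle, KEAP1 KO/vehicle against WT/vehicle and both differences in effect not called above. The replicate block changed no call of the other comparisons except Ciita in WT/vehicle against NRF2 KO/vehicle (adjusted p = 0.0146).

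Values that changed sign were all uncalled. H2-Ab1 in WT/vehicle against media/vehicle was -0.015 without scaling and -0.036 with array weights. The difference of KEAP1 KO CM from WT CM was -0.00045 for H2-DMb1 without scaling, and with array weights -0.085 for H2-DMb1 and -0.13 for Ciita. H2-DMb2 was 0.14 for the difference of NRF2 KO CM from control media with a pseudocount of 0.1, and in NRF2 KO/vehicle against media/vehicle 0.069 with array weights and 0.052 without both NRF2 KO replicate 3 libraries. With CDDO-Me in NRF2 KO CM, H2-Ab1 was 0.092 and 0.17 and Cd74 was -0.063 and -0.0020 under those 2 settings. With each library left out, log2 fold changes that crossed 0 ran, for WT/vehicle against media/vehicle, from -0.45 to 0.14 (H2-Aa), -0.18 to 0.25 (H2-Ab1), -0.34 to 0.11 (H2-Eb1) and -0.078 to 0.46 (Ciita). For KEAP1 KO/vehicle against media/vehicle they ran from -0.35 to 0.072 (Cd74) and -0.45 to 0.0084 (Ciita), and for NRF2 KO/vehicle against media/vehicle from -0.51 to 0.32 (H2-Ab1) and -0.34 to 0.052 (H2-DMb2). For KEAP1 KO/vehicle against WT/vehicle they ran from -0.54 to 0.030 (H2-DMa) and -0.18 to 0.41 (H2-DMb2), for WT/vehicle against NRF2 KO/vehicle from -0.27 to 0.56 (H2-Ab1), and for CDDO-Me in control media from -0.26 to 0.060 (H2-DMb1). For CDDO-Me in NRF2 KO CM they ran from -0.21 to 0.10 (H2-Aa), -0.42 to 0.41 (H2-Ab1), -0.46 to 0.11 (H2-Eb1) and -0.17 to 0.30 (Cd74). For the difference of NRF2 KO CM from control media the range was -0.26 to 0.18 (H2-DMb2), and for that of KEAP1 KO CM from WT CM -0.26 to 0.24 (Ciita), -0.21 to 0.36 (H2-DMa) and -0.20 to 0.20 (H2-DMb1).

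Without scaling, the median of all genes moved to -0.12 with CDDO-Me in WT CM and -0.17 in KEAP1 KO CM, and 1581 of 4040 and 1563 of 4513 calls were higher, against 1976 of 3812 and 1975 of 3932. Calls as higher were then 486 of 1009 against 599 of 988 for WT/vehicle against media/vehicle, 610 of 1379 against 935 of 1449 for WT/vehicle against NRF2 KO/vehicle, and 934 of 2309 against 1119 of 2027 for the difference of KEAP1 KO CM from control media.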
